A study of Homo sapiens with 8 samples.

Results

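TCP11L2 and the 5 genes of the YPEL family, YPEL1 to YPEL5, were followed in A375 cells cultured with or without serum. TCP11L2 was chosen by its read counts in these libraries, which were much higher without serum, so its difference between the conditions is given as a description, with no test. The YPEL genes were entered as a whole family, not for the size of their own differences, although earlier results of these data were known. These 6 genes are among 58051 genes counted, and all 6 were among the 17671 with enough reads to be tested.

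A375 is a human melanoma cell line. RNA was sequenced from 4 A375 lines of wild type, named WT1 to WT4, each kept for 12 h in DMEM with 10% fetal bovine serum (FBS) or in DMEM without it, which gives 8 libraries from otherwise untreated cells. The study compared A375 lines with and without NECTIN1, an adhesion molecule, and the labels do not say how the WT lines were derived. NECTIN1 was present in every library, at 44.9 to 67.4 CPM (reads on the gene scaled to library size). The contrast asks what 12 h without serum does to the RNA of these cells, and the line number pairs the 2 libraries of a line.

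TCP11L2 encodes a protein of the TCP11 family, about which little is known, and its RNA has been linked to resting cells. The YPEL (yippee-like) proteins are small and highly conserved and share a zinc-binding fold that is also found in cereblon and in the centromere protein MIS18A. YPEL1 to YPEL4 are close relatives of one another, while YPEL5 is a more distant member that is found at the spindle and midbody and binds the CTLH ubiquitin ligase complex. YPEL3 is known as a gene that p53 can induce and that slows growth when it is overexpressed.

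The libraries held 29759279 to 67101005 reads on genes with serum and 37847737 to 73341551 without. The serum libraries of WT1 and WT2 stood apart in having 22.7% and 16.8% of their listed reads aligned to more than 1 place, against 5.73% to 10.1% in the other 6. Calls of YPEL genes between the conditions that change without them are given both ways. Among 13 melanocyte and melanoma markers, the summed level was 1687 to 2150 CPM with serum and 1456 to 1895 without, mostly from VIM and AXL. Of the lineage genes among them, MITF was at 30.1 to 44.1 CPM, NGFR at 24.1 to 199 CPM, S100B at 13.6 to 34.9 CPM and TFAP2A at 11.7 to 26.1 CPM, whereas SOX10 had no read in any library, TYR was at no more than 0.0523 CPM, and PMEL, MLANA, DCT, SOX9 and S100A1 reached at most 6.28 CPM. Markers of other cell types were low apart from KRT14, which was at 11.6 to 21.0 CPM, near the level of TFAP2A. Their sums were at most 9.56 CPM for 5 fibroblast genes, 21.7 for 2 keratinocyte genes (nearly all KRT14), 0.994 for VWF and 0.205 for 3 immune genes. In the libraries labelled WT4 the deposited counts carry another line name, so the identity of that line rests on its label.

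The members lie on 6 chromosomes. In RefSeq's GRCh38.p14 annotation, TCP11L2 (ENSG00000166046) is on the plus strand at chr12:106297935-106347003, and YPEL5 (ENSG00000119801) on the plus strand at chr2:30147007-30160533. YPEL3 (ENSG00000090238) takes up only 3900 bases of the minus strand at chr16:30092314-30096213, and YPEL4 (ENSG00000166793) 4826 bases of the minus strand at chr11:57645087-57649912. YPEL2 (ENSG00000175155) is on the plus strand at chr17:59331655-59401729, and YPEL1 (ENSG00000100027) on the minus strand at chr22:21697536-21735794. Coding sequences of YPEL1 to YPEL4 were 76.9% to 80.6% identical to each other and 60.4% to 61.4% identical to YPEL5, but the longest identical run between any pair was 22 bases, and no 50-base window of any annotated transcript of one member was found in a transcript of another.

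The RefSeq promoter table held 5 of the 6 members, all but YPEL1. The 250 bases before the start are shown for TCP11L2, YPEL3 and YPEL5 because these are the members whose levels ran most closely together across the libraries, so that a reader can look for shared letters. Capitals mark GTAAACA, the core letters of a FOXO binding site. FOXO factors are held out of the nucleus by insulin and growth factor signalling. The TCP11L2 stretch (chr12:106302483-106302732, plus strand) ends at a transcript start that lies inside the gene's annotated span, the YPEL3 stretch is chr16:30096214-30096463 on the minus strand, and the YPEL5 stretch is chr2:30146757-30147006 on the plus strand, all in GRCh38.p14.
TCP11L2: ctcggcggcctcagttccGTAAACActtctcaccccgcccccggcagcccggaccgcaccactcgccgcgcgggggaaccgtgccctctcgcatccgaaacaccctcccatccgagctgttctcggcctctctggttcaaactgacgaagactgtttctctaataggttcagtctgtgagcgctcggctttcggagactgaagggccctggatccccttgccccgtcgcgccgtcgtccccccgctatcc
YPEL3: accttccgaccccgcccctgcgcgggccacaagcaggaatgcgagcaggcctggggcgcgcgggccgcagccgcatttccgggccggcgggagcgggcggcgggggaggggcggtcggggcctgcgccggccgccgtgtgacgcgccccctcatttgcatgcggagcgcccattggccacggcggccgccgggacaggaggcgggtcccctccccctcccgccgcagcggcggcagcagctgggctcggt
YPEL5: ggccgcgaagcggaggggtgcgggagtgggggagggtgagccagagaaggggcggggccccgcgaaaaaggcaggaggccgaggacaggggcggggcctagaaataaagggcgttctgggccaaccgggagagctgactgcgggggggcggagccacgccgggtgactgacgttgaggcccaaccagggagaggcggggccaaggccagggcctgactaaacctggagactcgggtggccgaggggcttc

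The FOXO letters were found in TCP11L2, 232 bases before the start, and in YPEL3, where they begin at the first transcribed base and so lie just past the stretch above. Each match is shown with its flanks, at chr12:106302492-106302516 on the plus strand for TCP11L2 and at chr16:30096198-30096222 on the minus strand for YPEL3.
TCP11L2 match: ctcagttccGTAAACActtctcacc
YPEL3 match: gggctcggtGTAAACAagtccaggc

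In 300-base windows (250 before and 50 after the start), these letters on either strand were in 3.42% of all 35116 promoters in the table. YPEL2, YPEL4 and YPEL5 had no match in theirs. Among genes tested for the serum difference, 85 of 437 with the FOXO letters (19.5%) were higher without serum, against 11.4% of 11505 without them, while 12.6% and 17.2% were lower, and no test of this was made. Of the other letters searched on both strands, TTTGAA (a cell cycle homology region core, in 15.2% of promoters) was in TCP11L2 115 bases before the start, as its reverse complement. TGANTCA (AP-1, in 7.71%) was in YPEL4 40 bases before the start. Genes with TTTGAA were called higher in 11.5% of cases against 11.7% without it, and those with TGANTCA in 13.3% against 11.6%. They were called lower in 18.9% against 16.7% for TTTGAA and in 11.8% against 17.4% for TGANTCA, again with no test. CACGTG (an E-box) and the E2F letters TTTCCCGC, TTTGGCGC and TTTCGCGC matched no member. None of these motifs contains another. The motifs were picked after the promoters had been read, and a match is a description of the letters, not of binding.

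TCP11L2 went from one of the scarcer RNAs tested to a middling one. With serum it was at 1.24, 0.91, 2.27 and 1.80 CPM in WT1 to WT4, from 47, 60, 97 and 51 reads. Without serum it was at 8.27, 10.3, 11.9 and 17.01 CPM, from 349, 786, 462 and 958 reads. The lowest serum-free library was thus well above the highest serum library, and each line showed the difference. The means were 1.55 ± 0.60 and 11.9 ± 3.74 CPM (SD, n = 4), a 7.63-fold difference, and the fitted log2 fold change was 2.94 with a standard error (SE) of 0.32. Only 5 of the 17671 tested genes had a larger one. By line the log2 difference was 2.69, 3.44, 2.37 and 3.21, and it was largest in WT2, whose serum level was the lowest of the 4. Without the serum libraries of WT1 and WT2 the log2 fold change was 2.53. In bulk RNA, a change in the share of cells that express a gene and a change in RNA per cell cannot be told apart.

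YPEL3 had the largest log2 fold change in the family. Its level with serum was 3.10, 3.24, 3.67 and 5.35 CPM in WT1 to WT4, and without serum 12.7, 13.0, 13.6 and 18.6 CPM. WT1 to WT3 were close together in both conditions and WT4 was above them in both. YPEL3 rose by a log2 fold change of 1.92 (SE 0.20), with an adjusted p of 9.14e-04 (the quasi-likelihood test of edgeR, Benjamini-Hochberg adjusted over all tested genes). The lines differed little in the size of this rise, at 2.02, 1.99, 1.88 and 1.79 on the log2 scale.

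YPEL5, the partner of the CTLH complex, had a smaller log2 fold change than YPEL3 and less spread between lines. It was at 8.501, 9.41, 10.2 and 11.7 CPM with serum and at 22.3, 23.9, 24.5 and 30.1 CPM without. The order of the lines, WT1 lowest and WT4 highest, was the same in both conditions. YPEL5 rose by 1.34 (SE 0.13, adjusted p = 8.28e-04 by the quasi-likelihood test of edgeR, Benjamini-Hochberg adjusted), and the difference by line was 1.38, 1.34, 1.26 and 1.36, an SD of 0.056. In each of the 4 lines the log2 difference of YPEL3 exceeded that of YPEL5, although a sign-based test over 4 lines could not pass 0.05 and none was made.

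YPEL2 had a wide spread between lines, with a fitted range of 0.93 on the log2 scale by edgeR, against 0.89 for TCP11L2. By limma voom that order was reversed, at 0.969 for YPEL2 and 0.979 for TCP11L2. Levels of YPEL2 with serum were 4.74 and 5.95 CPM in WT1 and WT2 but 10.4 and 9.22 CPM in WT3 and WT4. Without serum they were 14.3 and 12.5 CPM in WT1 and WT2 and 22.4 and 26.8 CPM in WT3 and WT4, so WT3 with serum came near to WT2 without it. YPEL2 rose by 1.33 (SE 0.32, adjusted p = 0.0190 by the quasi-likelihood test of edgeR, Benjamini-Hochberg adjusted). The call of this unpaired fit depended on single libraries or lines: edgeR's adjusted p was 0.0548 without the serum library of WT2, 0.0598 without WT1, 0.0570 without WT3 and 0.0507 without WT4, and 0.138 without the serum libraries of both WT1 and WT2. By line the log2 difference was 1.59, 1.07, 1.10 and 1.54. With the line as a replicate block, which compares the conditions within each line, YPEL2 rose by 1.31 (SE 0.11, edgeR's adjusted p = 4.62e-07). That fit called 23.2% of all tested genes higher.

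YPEL1 was the scarcest member, with 8 to 56 reads per library. It entered the test through the serum-free group, since the filter asked for 0.234 CPM in 4 libraries, which all 4 serum-free but only 2 serum libraries reached, and it was not tested where at least 10 reads were required in every library. It was at 0.21, 0.17, 0.37 and 0.46 CPM with serum and at 0.90, 0.51, 1.44 and 0.46 CPM without. WT1, WT2 and WT3 were higher without serum, while in WT4 the levels differed by 0.011 on the log2 scale. The log2 fold change was 1.47 (SE 0.48) and passed narrowly, with an adjusted p of 0.0476 by the quasi-likelihood test of edgeR, Benjamini-Hochberg adjusted. Leaving out single libraries or lines took the adjusted p over the threshold in 8 of 12 cases, among them the serum library of WT1 (edgeR's adjusted p = 0.122), of WT2 (0.123) or of WT3 (0.0786), the serum-free library of WT1 (0.1004) or of WT3 (0.136), and both libraries of WT1 (0.204), WT2 (0.104) or WT3 (0.170). Exons of YPEL1 overlap those of PPIL2 on the opposite strand over 2480 bases. The strand setting of the counting is not stated, so reads there are uncertain. PPIL2 was at 56.5 and 54.9 CPM in the 2 conditions, with a log2 fold change of -0.04 (SE 0.07).

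YPEL4 had the smallest difference. It was at 2.46, 2.51, 2.10 and 1.97 CPM with serum and at 2.61, 3.96, 2.82 and 3.11 CPM without. The groups did not overlap, but the lowest serum-free library, WT1, was only just above the highest serum library, WT2. The log2 fold change of 0.47 (SE 0.19) did not pass, with an adjusted p of 0.0966 by the quasi-likelihood test of edgeR, Benjamini-Hochberg adjusted. With the line as a replicate block, which compares the conditions within each line, it passed (edgeR's adjusted p = 0.0336), although not in that fit with a correction for GC content (0.0863) and not by DESeq2 with the same block (0.0599).

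**Figure D1:**
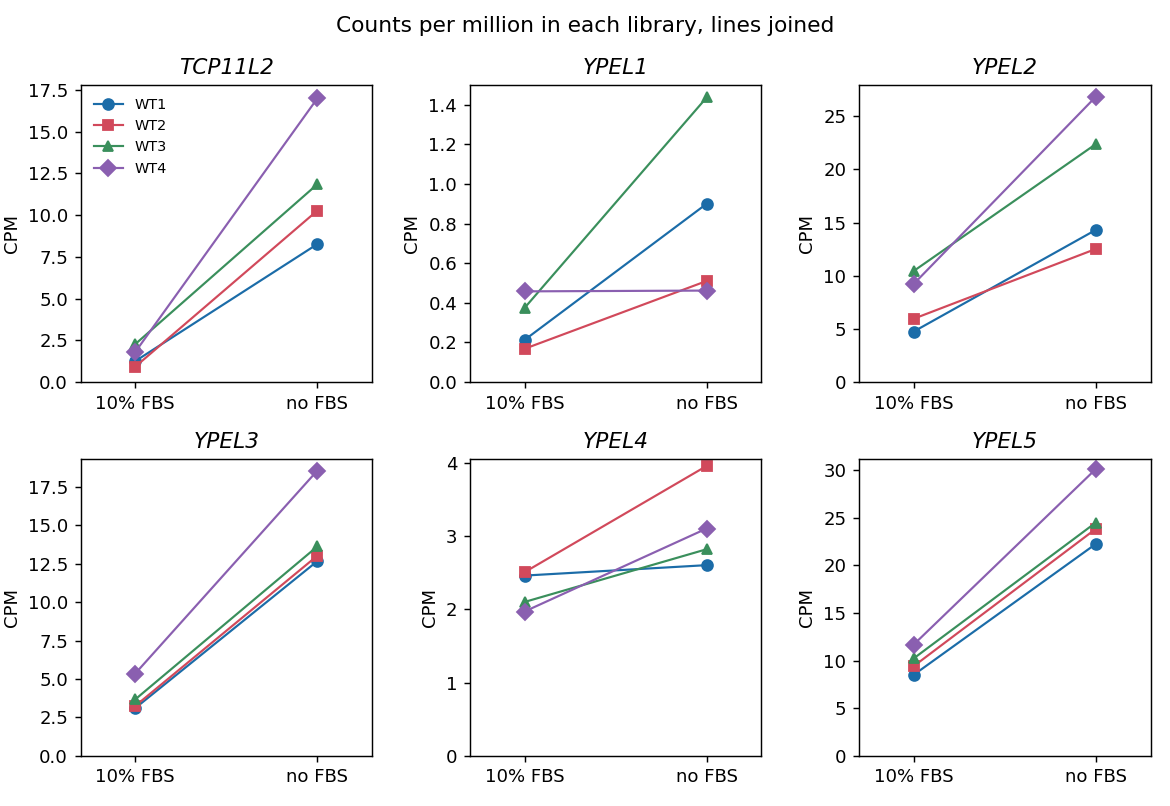
Level of each member in the 8 libraries, in CPM on a linear axis from 0, with and without FBS and with points of the same line joined. TCP11L2 goes from 0.91 to 2.27 CPM with serum to 8.27 to 17.01 CPM without, and YPEL1 in WT4 and YPEL4 in WT1 are nearly flat.

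Of the 5 YPEL genes, 4 passed as higher without serum and none as lower, where 11.1% of all tested genes were called higher. This count includes YPEL1, which its serum-free libraries brought into the test, and 3 passed when at least 10 reads were required in every library. Only 2, YPEL3 and YPEL5, passed without the serum library of WT2, without WT1 or without WT3. With the line as a replicate block all 5 passed by edgeR and 4 by DESeq2 or with a GC correction, but calls were then more common among all genes too, at 23.2% higher. The number of genes called in either direction went from 4434 (1957 higher and 2477 lower) to 8067 (4106 higher and 3961 lower) with the block, or from 25.1% to 45.7% of those tested. Under upper-quartile scaling the split was 2508 higher and 1843 lower, and the members' log2 fold changes ran from 0.53 for YPEL4 to 3.01 for TCP11L2. All 5 YPEL genes were higher in 4 of 4 lines, which held for 28.8% of tested genes, and all had the 4 serum-free libraries above the 4 serum libraries, which held for 12.6%. TCP11L2 did so as well, but it was chosen on that difference. For YPEL1, which its serum-free libraries brought into the test, both traits rest on WT4. YPEL1 was there at 0.458 CPM with serum and 0.462 without, a log2 difference of 0.011. The median log2 fold change of the 5 YPEL genes, YPEL1 included, was 1.34, and that of all tested genes was 0.03. Across genes, the log2 fold change went with GC content (Spearman rho 0.36 over 17425 genes, which are not independent). With the replicate block and a correction for GC content the values were 3.06 for TCP11L2, 1.41 for YPEL1, 1.36 for YPEL2, 1.80 for YPEL3, 0.37 for YPEL4 and 1.49 for YPEL5.

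**Figure D2:**
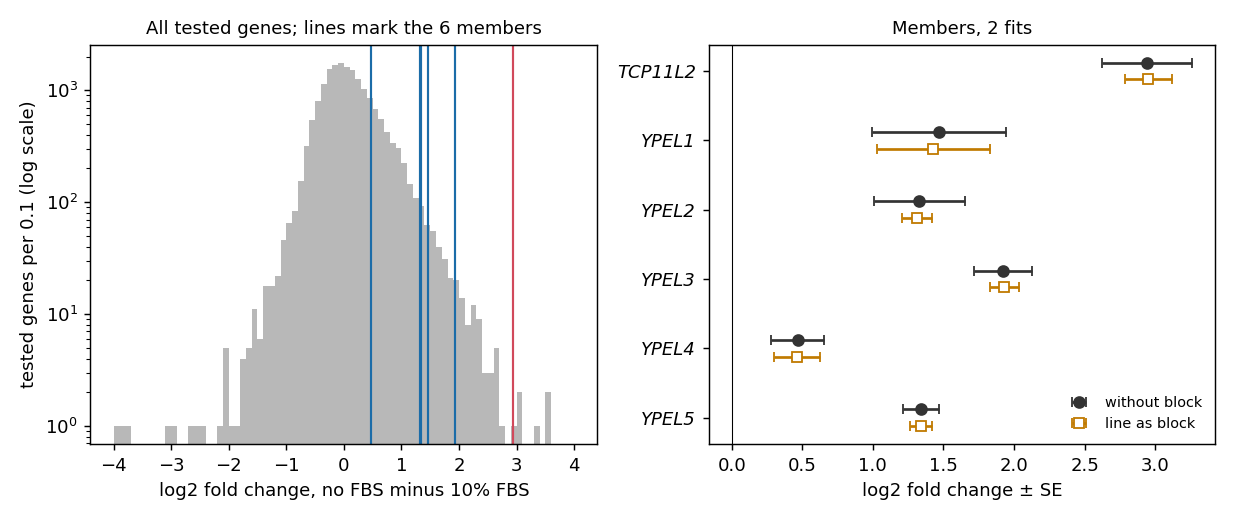
Left, log2 fold changes (no FBS minus 10% FBS) of the 17671 tested genes in bins of 0.1, with the number per bin on a log scale and values beyond 4 drawn at 4. The red line is TCP11L2 at 2.94 and the blue lines are the YPEL genes, from 0.47 to 1.92. Right, the same values with their SE, without the block and with the line as a block.

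Compared per exon length, the members were mostly rare RNAs. RPKM values, which divide CPM by the merged exon length in kilobases, put YPEL5 first with serum, at 2.91 ± 0.40, close to the median of 2.74 over 17425 genes. It was followed by YPEL3 (1.21 ± 0.33), YPEL2 (0.87 ± 0.31), YPEL4 (0.51 ± 0.060), TCP11L2 (0.23 ± 0.090) and YPEL1 (0.065 ± 0.029; each SD, n = 4). YPEL3 and YPEL2 overlapped in their spread and so did YPEL2 and YPEL4, while the other neighbours in this order did not overlap. Without serum the levels were 7.36 ± 1.003 for YPEL5, 4.55 ± 0.87 for YPEL3, 2.18 ± 0.78 for YPEL2, 1.79 ± 0.56 for TCP11L2, 0.70 ± 0.13 for YPEL4 and 0.18 ± 0.096 for YPEL1 (SD, n = 4). TCP11L2 had moved past YPEL4, its rank among the 17425 genes going from 14840 to 10178, and now overlapped YPEL2, while no other neighbours overlapped. With the longest transcript's length in place of merged exons, TCP11L2 was at 3.71 RPKM and YPEL2 at 3.61 RPKM without serum, so their order is not fixed by these data. That length also raised YPEL3 to 1.98 RPKM with serum and 7.46 without, where it overlapped YPEL5 (8.70 to 11.8 RPKM), and raised TCP11L2 with serum to 0.285 to 0.708 RPKM, which overlapped YPEL4 (0.493 to 0.627). The overlaps between neighbours thus depend on the length used.

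**Figure D3:**
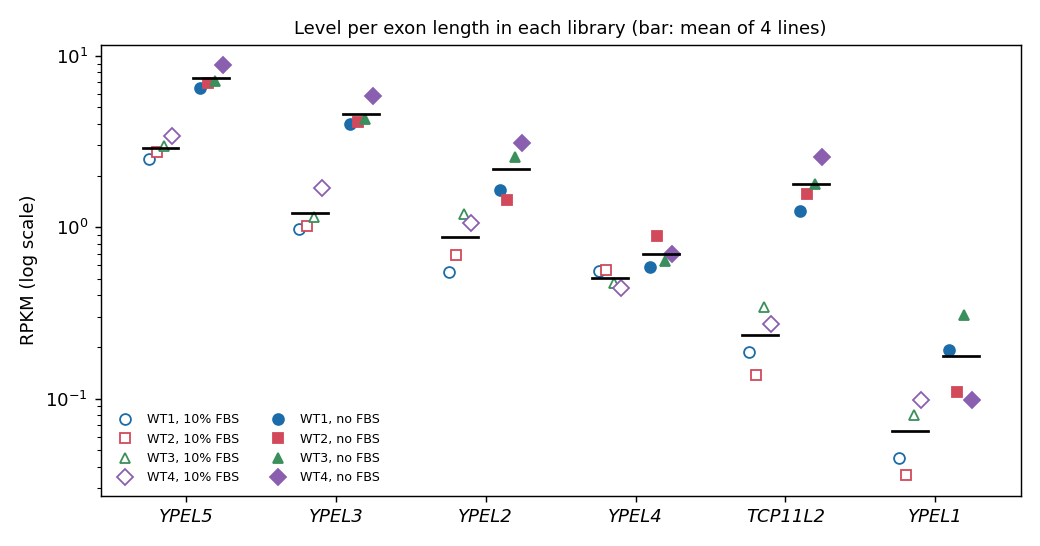
RPKM of the members in each library on a log axis, ordered by the mean with serum. Open symbols are libraries with FBS, filled symbols libraries without, and bars are means of 4 lines. YPEL5 leads in both conditions, at 2.91 and 7.36, and TCP11L2 passes YPEL4 without serum.

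The family's summed RNA was higher without serum, and YPEL3 made up more of it in all 4 lines while YPEL4 and YPEL5 made up less. The summed RPKM of the 5 YPEL genes was 5.56 ± 0.93 with serum and 15.0 ± 2.52 without (SD, n = 4). YPEL3's share of that sum was 19.6% to 25.1% with serum and 28.6% to 31.5% without, a difference in means of 8.83 percentage points. YPEL4's share was 6.60% to 12.0% with serum and 3.76% to 6.58% without, a difference of -4.66 percentage points (exact two-sided permutation test over 4 against 4 libraries for each of the 2 shares, p = 0.0286, the smallest this design allows, and 0.0714 after adjustment over the 5 shares). YPEL5 supplied 50.7% to 54.5% with serum and 47.6% to 51.6% without, which overlap between the conditions, but within lines its share differed by -3.60 to -2.83 percentage points. The shares of YPEL2, at 15.4% and 14.3%, and of YPEL1, at 1.13% and 1.22%, overlapped too. Paired by line, an exact sign-flip test over 4 lines cannot go below p = 0.125, which is what the shares of YPEL3, YPEL4 and YPEL5 gave, so none of these differences could pass.

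The lines themselves differed in 4 of the 6 members. The test of line with condition in the model uses differences that did not enter the choice of TCP11L2. It called TCP11L2 (adjusted p = 0.0181, fitted range between lines 0.89 on the log2 scale), YPEL2 (1.98e-04, 0.93), YPEL3 (0.0106, 0.64) and YPEL5 (0.0359, 0.45) by the quasi-likelihood test of edgeR, Benjamini-Hochberg adjusted, where 22.9% of all tested genes were called. YPEL1 (adjusted p = 0.263) and YPEL4 (0.497) did not pass. For TCP11L2 and YPEL2 the pair WT3 and WT4 was above the pair WT1 and WT2, with mean log2 CPM of 2.39 and 2.48 against 1.71 and 1.65 for TCP11L2 and of 3.94 and 3.98 against 3.05 and 3.12 for YPEL2. YPEL3 was high in WT4 alone (3.32, against 2.66 to 2.83 in the others), and without WT4 its difference between lines did not pass (edgeR's adjusted p = 0.718). The call for YPEL5 was lost without WT1 (edgeR's adjusted p = 0.129), WT2 (0.0563) or WT4 (0.388).

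**Figure D4:**
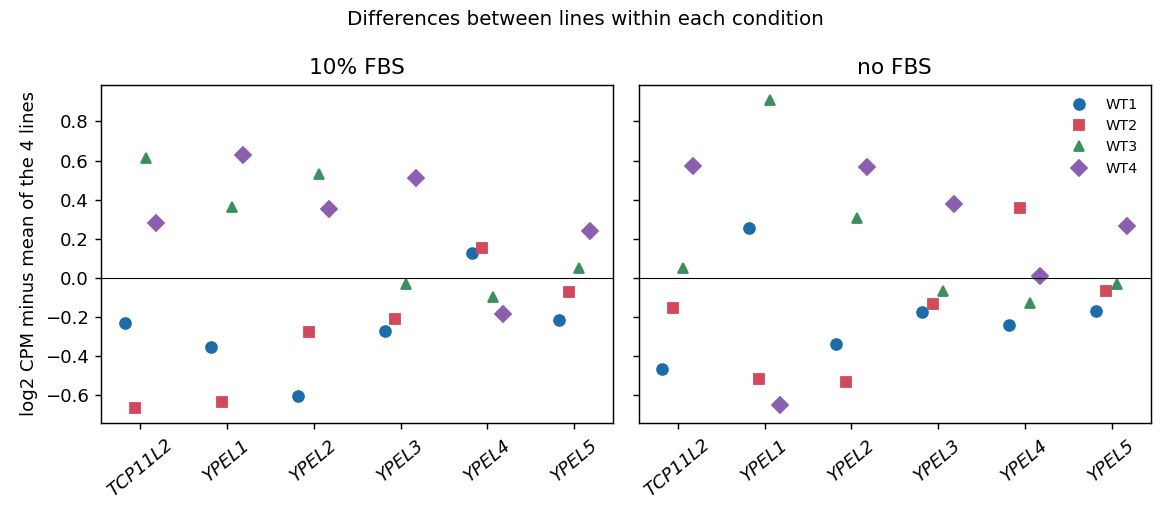
Log2 CPM of each member in each line minus the mean of the 4 lines, separately with and without FBS. WT3 and WT4 lie above 0 for TCP11L2 and YPEL2 in both conditions, and WT4 alone is high for YPEL3.

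Across the 8 libraries, TCP11L2 ran closest to YPEL5 (Pearson r = 0.98 of log2 CPM) and YPEL3 (0.98), less closely to YPEL2 (0.92) and YPEL1 (0.77), and least to YPEL4 (0.68). YPEL3 and YPEL5 had r = 0.996 with each other. These coefficients describe 8 libraries that share the serum difference, and they carry no test. Among 13266 genes with a mean of at least 1 CPM, the most like TCP11L2 were PPM1N (r = 0.997, log2 fold change 1.64), SMIM14 (0.994, 1.53), ZBTB42 (0.993, 1.06), NIPAL3 (0.991, 1.11) and YIPF4 (0.989, 0.46), all with smaller log2 fold changes than the 2.94 of TCP11L2. The most like YPEL3 were SLC27A1 (r = 0.998), which encodes a fatty acid transporter, H6PD (0.997) and WDR45 (0.997), an autophagy gene. YPEL5 was most like CALCOCO1 (r = 0.997), SLC27A1 (0.997) and YPEL3 itself. For YPEL2 they were NRN1 (0.993), FAM210B (0.992) and the pseudogene PHACTR2P1 (0.992), and for YPEL4 AZIN2 (0.967), LIPT2-AS1 (0.936) and YBEY (0.933). YPEL1 was under the minimum level for this comparison.

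In the fit without the block over all 8 libraries, none of the tested genes of related sequence or of the CTLH complex, the partner of YPEL5, was called higher. Without the serum library of WT4, RMND5B, a subunit of that complex, was called higher and 3 other CTLH genes lower. That fit called 2849 of all tested genes higher and 3279 lower. TCP11L1, the closest relative of TCP11L2 that could be tested, was at 38.4 ± 3.17 CPM with serum and 35.6 ± 2.70 without (SD, n = 4), which is -0.11 on the log2 scale (edgeR's adjusted p = 0.378), and TCP11, TCP11X1 and TCP11X2 had too few reads to test. Of 3 other genes with a yippee-like fold, the kinetochore gene MIS18A fell by 0.50 on the log2 scale (edgeR's adjusted p = 0.0147), while CRBN, which encodes cereblon, was at 0.14 (0.228) and OIP5, the partner of MIS18A, at -0.16 (0.444). Of 10 CTLH genes 1 fell and none rose, against 14% of all tested genes called lower. The one called was ARMC8, at -0.31 (edgeR's adjusted p = 0.0309), and that call was lost in 12 of 23 other settings. The log2 fold changes of the others were -0.02 for RANBP9, 0.14 for RANBP10, -0.02 for MAEA, -0.13 for RMND5A, 0.13 for RMND5B, -0.10 for GID8, 0.05 for WDR26, 0.05 for GID4 and -0.13 for MKLN1. Those of RANBP9 and MAEA changed sign under upper-quartile scaling. With the replicate block and the GC correction, CRBN (0.36, edgeR's adjusted p = 1.22e-04) and WDR26 (0.16, 0.00461) were called higher. MIS18A (-0.42, 0.00574), MAEA (-0.15, 0.00871) and ARMC8 (-0.17, 0.0110) were called lower. That fit called 24.3% of all tested genes higher and 22.1% lower.

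In the lists of quiescence genes and of FOXO targets, all calls in the fit without the block were higher. Of 28 genes linked to quiescence or antiproliferative action, 11 rose, none fell and 17 did not pass (median log2 fold change 0.31), where 11.1% of all tested genes were called higher and 14% lower. With the replicate block alone 15 rose and none fell, where the shares over all tested genes were 23.2% and 22.4%. With the GC correction as well 18 rose and 4 fell, where those shares were 24.3% and 22.1%. The smallest p-values were those of PDCD4, a translation inhibitor, at 1.11 (SE 0.13, edgeR's adjusted p = 0.00101), CCNG2, the cyclin G2 gene, at 1.35 (SE 0.16, 0.00112) and HBP1, a transcriptional repressor, at 1.54 (SE 0.18, 0.00116). Of 14 tested FOXO targets 8 rose and none fell (median 0.51). With the block alone 9 rose and none fell, and with the GC correction as well 10 rose and 1 fell, against the same shares as for the first list. In the fit without the block, BMF, a BH3-only gene, rose by 2.62 (SE 0.26), FBXO32, a ubiquitin ligase gene, by 1.69 (SE 0.16) and KLHL24 by 1.42 (SE 0.15). Each had an edgeR adjusted p under that of PDCD4. CCNG2 and 5 other tested genes stand in both lists. Leaving out 1 library or line gave 4 to 11 rises in the first list and 5 to 9 in the second, the fewest without WT1 in the first and without WT1, WT3 or the serum library of WT2 in the second. 

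The p53 targets had calls in both directions. YPEL3 is known as one, and whether p53 moved its level was not tested. Of 15, 3 rose and 2 fell, and 10 did not pass (median -0.10), where 11.1% of all tested genes were called higher and 14% lower. XPC, a DNA repair gene, rose by 0.31 (edgeR's adjusted p = 0.00995), whereas SESN2 fell by 0.74 (0.0208) and TIGAR, a regulator of glycolysis, fell by 0.46 (0.0241). With the replicate block 4 rose and 5 fell, where 23.2% of all tested genes were called higher and 22.4% lower, and leaving out 1 library or line gave 0 to 5 calls. CDKN1A, the p21 gene and named here outside the rule for its place in that pathway, was at -0.17 (edgeR's adjusted p = 0.658, and 0.0380 under the replicate block).

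Genes of proliferation fell without serum. Of 15 such genes 14 fell and none rose (median -0.58), against 14% of all tested genes called lower, led by RRM2, a ribonucleotide reductase gene, at -0.96 (SE 0.09), MYBL2 at -0.85 (SE 0.08) and CCNA2, the cyclin A2 gene, at -0.62 (SE 0.07), with adjusted p-values of 8.28e-04, 8.28e-04 and 9.92e-04 by the quasi-likelihood test of edgeR, Benjamini-Hochberg adjusted. Of 14 genes of the DREAM and MuvB complexes, which repress or activate cell cycle genes, 3 rose and 7 fell (median -0.18), against 11.1% higher and 14% lower over all tested genes. The smallest p-values there were those of MYBL2, TFDP1 (-0.69, edgeR's adjusted p = 8.28e-04) and TFDP2 (0.47, 0.00208), which encode the E2F partners DP1 and DP2. Whether the share of dividing cells moved the members' levels was not tested.

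**Figure D5:**
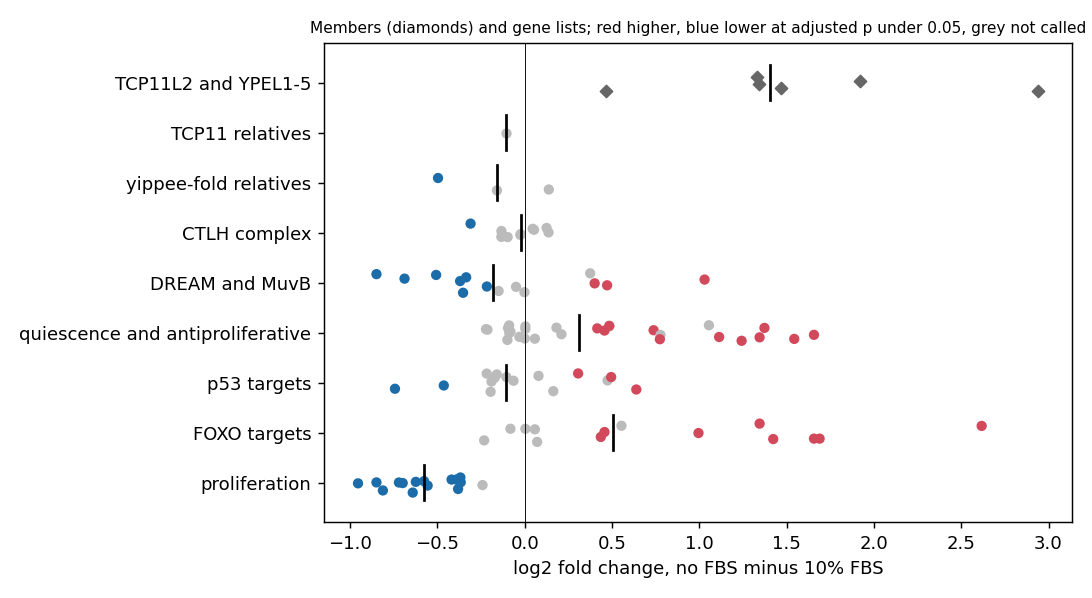
Log2 fold changes (no FBS minus 10% FBS) of the 6 members, as diamonds with no call shown, and of the tested genes of 8 lists, with red for higher, blue for lower and grey for not called, and a bar at each median. The members lie between 0.47 and 2.94, the proliferation genes below 0, and the CTLH genes around 0.

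Of the genes next to or overlapping the members, some were lower and some higher without serum. POLR3B, 10745 bases past TCP11L2, fell by 0.40 on the log2 scale (SE 0.08, edgeR's adjusted p = 0.00586), and CKAP4, which shares 220 exonic bases with TCP11L2 on the opposite strand, was at -0.19 (0.11, or 0.0223 with the replicate block). TBX6 lies 390 bases from YPEL3 and rose by 0.89 (SE 0.24, 0.0238), from 0.89 to 1.65 CPM, a call that was lost in 11 of 23 other settings (adjusted p up to 0.377). YPEL3-DT, which overlaps YPEL3 by 300 exonic bases on the opposite strand, had at most 22 reads in a library. CLP1, which shares 260 exonic bases with YPEL4 on the opposite strand, was at -0.18 (0.147), and MIR130AHG, with 197 shared bases, at 0.44 (0.519). ALK, 225421 bases from YPEL5, was at 0.32 (0.701). Of the other nearest genes, 6 had at most 1 read in any library.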

How the data were processed

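RNA was measured in 8 libraries, grouped by the labels into serum and serum-free, with the line number pairing them. Total RNA was depleted of ribosomal RNA before sequencing. The authors deposited raw read counts per Ensembl gene, not normalized. The submitters' processing notes name cutadapt, TopHat2 2.0.11, HTSeq and the build GRCh38, while the annotation release and strand setting are not given in the sources used here. The 5 summary rows of each library were left out. Whether the 2 cultures of a line were repeated is not stated, so p-values of the fit without the block measure the spread between these lines. Those of the block fits and of the line test measure what is left after line and condition are fitted.

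After filterByExpr and TMM scaling, edgeR 4.0.16 (R 4.3.3) fitted the counts with robust glmQLFit, and glmQLFTest compared serum-free with serum and, separately, the lines given condition, with Benjamini-Hochberg adjustment over all tested genes and a threshold of 0.05. Log2 CPM used a prior count of 2. RPKM used merged exon lengths from GENCODE models placed on GRCh37, whereas the counts are on GRCh38. Positions and promoters are RefSeq's, on GRCh38.p14. Alternatives were the replicate block, DESeq2 1.42.0, limma 3.58.1 voom, other scalings and filters, a GC correction, each library or line left out and, added after seeing the data, the serum libraries of WT1 and WT2 left out together, WT3 and WT4 alone, and another gene length and pairing by line for the YPEL shares. The code was tested on simulated data.

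The members and gene lists were chosen with earlier results of these data known. Named were all members, all tested TCP11, yippee-fold and CTLH genes, the 3 genes of smallest p in each other list, the nearest genes on each side, NECTIN1, and genes whose levels were most like a member's (5 for TCP11L2, 3 for each YPEL gene with a mean of at least 1 CPM). The line pairing was checked by deviations from condition means over 12570 genes, which correlated at 0.66 to 0.79 within lines and at most 0.22 between lines. Genes overlapping a member and CDKN1A were added after values were seen. One neighbouring gene is not reported here.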

Additional observations from a re-analysis of the deposited data

Results flagged for a closer look

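Within a group of 4 libraries, 8 values had 1 line far from the other 3 by Dixon's criterion (the gap to the nearest line over the whole range, above 0.829), out of 104 values examined, where chance flags about 1 in 20 groups, or 5.2 here. One was a member: YPEL3 without serum was at 18.6 CPM in WT4 and at 12.7 to 13.6 CPM in the other lines (ratio 0.838). WT4 was also high without serum for RMND5B (49.7 CPM against 43.7 to 44.6, ratio 0.85), SMIM14 (16.6 against 13.0 to 13.3, ratio 0.916) and ZBTB42 (8.26 against 6.49 to 6.67, ratio 0.896), and SMIM14 and ZBTB42 are among the genes most like TCP11L2. WT4 was high with serum for GID8 (123 CPM against 114 to 115, ratio 0.917). It was low with serum for ARMC8 (38.5 against 46.5 to 46.8, ratio 0.958) and low without serum for CCNA2 (106 against 117 in the nearest others, ratio 0.949). MAEA without serum was high in WT3 (86.3 against 82.3 to 82.9, ratio 0.848).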

How the results depend on the processing

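TCP11L2 kept its direction in all 23 other settings, with log2 fold changes of 2.53 to 3.19. This is a description, since the gene was chosen for its rise in these same libraries. YPEL3 and YPEL5 kept their calls in all but one, the fit of WT3 and WT4 alone, where edgeR's adjusted p was 0.0811 (1.84) and 0.0805 (1.32) and 14 genes were called in all. With 4 libraries, that fit also lost YPEL1 (1.18, adjusted p = 0.381) and YPEL2 (1.32), left 0 YPEL genes called, and gave 0 calls in the lists of yippee-fold, CTLH, DREAM, p53 and proliferation genes, 1 of quiescence and 3 of FOXO genes. Without the serum libraries of WT1 and WT2, 1098 genes were called, 2 of them YPEL genes, with YPEL1 (0.97) and YPEL2 (0.94) not called. The list counts were then 0 for yippee-fold, CTLH and p53 genes and 4 each for DREAM, quiescence and FOXO genes, while GID4 (-0.00947) and ALK (-0.0467) changed sign. YPEL1 was also lost with limma voom (1.35, adjusted p = 0.0683), and YPEL2 with no filter on low counts (1.32, adjusted p = 0.0688).

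With line as the replicate block, 8067 genes were called by edgeR, 7618 by DESeq2 and 8199 with GC correction. The paired fit added YPEL4 (0.46, adjusted p = 0.0336 by edgeR, but 0.0599 and not called by DESeq2), gave 9 p53 calls with either tool, and changed no other member's call. With GC correction as well there were 10 p53 calls (5 higher), 22 quiescence calls (18 higher), 3 CTLH calls (1 higher, WDR26) and 2 yippee-fold calls (1 higher, CRBN), and MKLN1 (0.0894) changed sign. Upper-quartile scaling gave 0 CTLH calls and reversed RANBP9 (0.0403), MAEA (0.0409) and PPIL2 (0.0228).

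Leaving out 1 library or line gave 1589 to 6128 genes, fewest without WT1. It left 2 to 4 YPEL genes, with log2 fold changes of 1.06 to 1.91 for YPEL1 and 1.12 to 1.52 for YPEL2. List counts ran from 0 to 1 (yippee-fold), 0 to 4 (CTLH), 5 to 11 (DREAM), 4 to 11 (quiescence), 0 to 5 (p53) and 5 to 9 (FOXO). Signs changed within these fits for RANBP9 (-0.0662 to 0.00367), MAEA (-0.0762 to 0.0438), PPIL2 (-0.0912 to 0.0323), GID4 (-0.0108 to 0.130), OIP5 (-0.319 to 0.0155), WDR26 (-0.00264 to 0.0901), ALK (-0.300 to 0.815) and YPEL3-DT (-0.0847 to 0.788), none of them called. For line differences, 169 genes and 0 members were called with no condition term, which leaves the serum difference in the spread, and 2 to 4 members without 1 line.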
